A study of Mus musculus with 12 samples.

Results

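The 40 genes described here are genes of mitosis, taken as a fixed list of symbols covering cyclins and Cdk1, mitotic kinases, kinesins, kinetochore, chromosome, spindle and cytokinesis proteins; no measured value enters the rule. All 40 symbols were found among the 22416 genes of the count tables. The measurement was ribosome footprints per gene in wells of 384-well plates, each sorted to receive 1 live cell from the back-skin epidermis of C57Bl/6 mice, so a count reports ribosome-bound message and not total mRNA. The animals were given cycloheximide, which stalls ribosomes, into the tail vein before they were killed. Young females were 56 to 60 days old and old females 22 to 26 months old, with 3 animals per age.

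The 5 young and 5 old plates were assigned to animals by age and postnatal day, which gives the 3 young animals P57, P59 and P60 and the 3 old animals P662, P722 and P758; that 1 day stands for 1 animal is an assumption that matches the 3 animals per age. After wells under 100 counts were left out, 1906 of 1924 wells remained, with 3382018 counts, of which 18247 lay on the 40 genes. Depth was very uneven: P60 (3 plates, 981 wells) held 2384294 counts and P758 (2 plates, 627 wells) 896688, while P662, P722, P57 and P59 held 70549, 12886, 5230 and 12371. Levels are given in CPM, counts scaled to a total of 1000000 in the wells they come from. A single count is worth 0.419 CPM in P60, 1.11 CPM in P758, and 14.2, 77.6, 191 and 80.8 in the other animals, in that order. The plates use the same set of well barcodes, so 383 of 384 barcodes occur in several plates by construction and a well is identified by plate and barcode. Intervals below are exact 95% intervals (Clopper-Pearson for shares, Poisson for counts), and they cover counting error only.

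When a cell divides, cyclin-dependent kinase 1 with its cyclins A and B starts mitosis, condensins and topoisomerase II compact and untangle the chromosomes, and kinesins and spindle proteins pull them apart under the watch of the kinetochore checkpoint. The anaphase promoting complex then destroys the cyclins and the cell body is divided by a ring organised by anillin and the centralspindlin complex. In the epidermis dividing cells lie mainly in the basal layer and in the growing parts of the follicle, and cells that move up into the spinous layer leave the cycle.

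Counts of the 40 genes lay in very few wells. No count of any of them was found in 1180 wells (61.9%), 1 gene was found in 446 wells, 2 genes in 132, 3 or 4 in 55 and 5 to 9 in 28. The remaining 65 wells (3.41%) had counts of at least 10 of the genes, and they held 93.0% of all counts on the 40 genes while holding 12.3% of the counts on all genes. Within these 65 wells, here called mitosis-rich, the 40 genes took 0.290% to 7.25% of the well's counts, with a median of 3.74%. In 10 wells all 40 genes were found, 9 of them from P60 and 1 from P758, and the shallowest of these wells had 11371 counts. The boundary of 10 genes is a description: 3 wells had exactly 10 of them and 5 wells had 9.

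The mitosis-rich wells came from the deeply sequenced animals, 46 from P60 and 19 from P758. The other 4 animals had none, but their median depth per well was 219 counts in P662, 347 in P722, 298 in P57 and 168 in P59, below the 518 counts of the shallowest mitosis-rich well, so most of their wells were too shallow to be counted as mitosis-rich and nothing is read from this 0. The mitosis-rich wells were also deeper than the rest, with a median of 2801 counts (518 to 27783) against 873 in the other wells; the part of depth in the number of genes found per well was addressed by thinning, below.

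**Figure D1:**
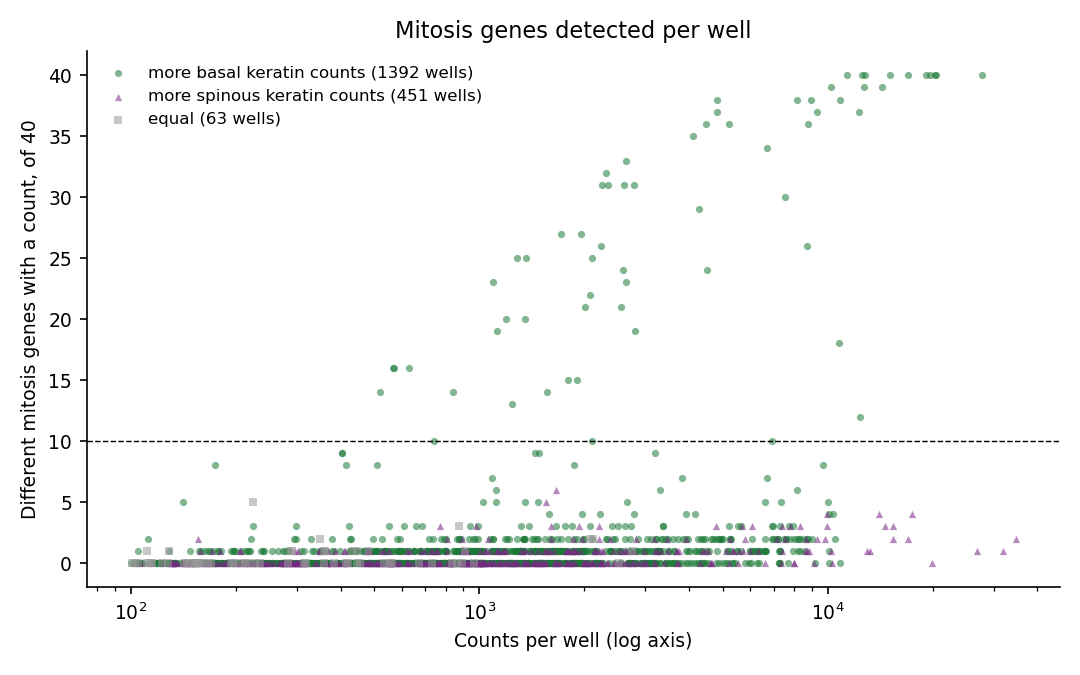
Each point is 1 of 1906 wells, placed by its counts (log axis) and by how many of the 40 mitosis genes had a count, and coloured by whether basal (Krt5, Krt14, Krt15) or spinous (Krt1, Krt10) keratin counts were higher. All 65 wells on or above the dashed line at 10 genes have more basal than spinous keratin counts.

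The genes were found together at equal depth as well. In 863 wells of at least 1000 counts, each thinned to 1000 counts, 570 wells had none of the 40 genes, 176 had 1, 42 had 2, 24 had 3 to 9 and 51 had 10 or more, up to 27; another 1043 wells were shallower and left out. Most of the 863 wells came from P60 (590) and P758 (259). Mki67, which encodes the Ki-67 protein that coats mitotic chromosomes, was found in 85 thinned wells, and 74 of these (87.1%, 78.0 to 93.4) had a count of at least 1 other gene of the list. Among the 778 wells without Mki67 that share was 26.7% (23.7 to 29.99). The Mki67 wells held a median of 14 other genes of the list and the wells without it a median of 0.

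By role, co-detection in thinned wells was nearly complete for the engine of mitosis. Cdk1, the kinase that starts mitosis, was found in 28 thinned wells and its partners Ccna2 and Ccnb2 in 30 and 18, and each of these wells held another of the genes. Ccnb1, the other B-type cyclin, was too sparse to say much, with 6 wells, of which 5 held another gene. Of the kinases, Aurka (spindle poles), Aurkb (the catalytic subunit of the chromosomal passenger complex) and Bub1 (checkpoint) were always found with another gene, in 15, 21 and 9 wells. Plk1, which acts from centrosome maturation to cytokinesis, was accompanied in 17 of 18 wells, the checkpoint protein Bub1b in 32 of 33 and Pbk, a mitotic kinase of the MAP kinase kinase family, in 12 of 16. Among the kinesins, all wells with Kif4 (25) and Kif2c (16) held another gene, against 20 of 28 wells with Kif14. For the chromosome passenger scaffold Incenp the number was 37 of 56, for the spindle protein Ckap2l 24 of 40, and for Smc4, the core subunit of both condensins, 61 of 107 (57.01%, 47.1 to 66.5), the lowest share on the list. The most frequent pair was Mki67 with Top2a, the topoisomerase that untangles sister chromosomes: 54 wells held both, which is 63.5% of the Mki67 wells and 76.1% of the 71 Top2a wells.

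The same 4 genes, Smc4, Ckap2l, Incenp and Kif14, stood lowest when every count was used. For each gene the wells with counts of at least 5 of the other 39 were taken, 86 to 93 wells holding 13.8% to 14.6% of all counts. In these wells lay a median of 96.3% of a gene's counts, and over 90% for 36 of the 40 genes. The 4 genes below that were Smc4 with 72.7% (69.8 to 75.5), Ckap2l with 73.9% (68.3 to 78.9), Kif14 with 76.0% (69.0 to 82.0) and Incenp with 84.3% (80.6 to 87.5). Kif2c, a kinesin that takes microtubule ends apart, was highest with 98.7%. Smc4 was found in 280 wells and in 128 of them (45.7%) with no other gene of the list, whereas Ccnb1, Ccnb2, Birc5 and Bub1 were never found alone. Smc4 was still higher in the wells with other mitosis genes, with 1528 CPM where at least 5 others were found and 97.5 CPM where none was; for Mki67 the 2 values were 5076 and 22.8 CPM.

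By role, 85.4% to 97.8% of the counts lay in the 65 mitosis-rich wells. The share was highest for Cdk1 and the cyclins Ccna2, Ccnb1 and Ccnb2 (97.8% of 950 counts). It was 95.7% of 1732 counts for the kinetochore and cohesion proteins Cenpe, Cenpf, Knl1, the platform on which the checkpoint assembles, and Sgo2a, a shugoshin that guards sister cohesion. For cytokinesis, with Anln, Racgap1 and Ect2, it was 94.9%, and for the kinases Aurka, Aurkb, Bub1, Bub1b, Pbk and Plk1 94.8%. Cdc20 and Ube2c of the anaphase promoting complex reached 94.7%. The 8 kinesins, among them Kif11, which pushes the spindle poles apart, and Kif23, the motor of centralspindlin, reached 93.7%, with Kif2c, Kif4, Kif14, Kif15, Kif20a and Kif20b as the others. The spindle proteins Aspm, Hmmr, Nusap1, Prc1, which bundles the midzone, Tpx2 and Ckap2l reached 92.9%. The chromosome proteins Mki67, Top2a, Smc2, Smc4 and the condensin subunit Ncapd2 reached 91.0% of 6708 counts. The lowest share, 85.4% of 554 counts, belonged to Incenp and Birc5, survivin, the partners of Aurkb in the chromosomal passenger complex; Incenp holds 458 of these counts.

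**Figure D2:**
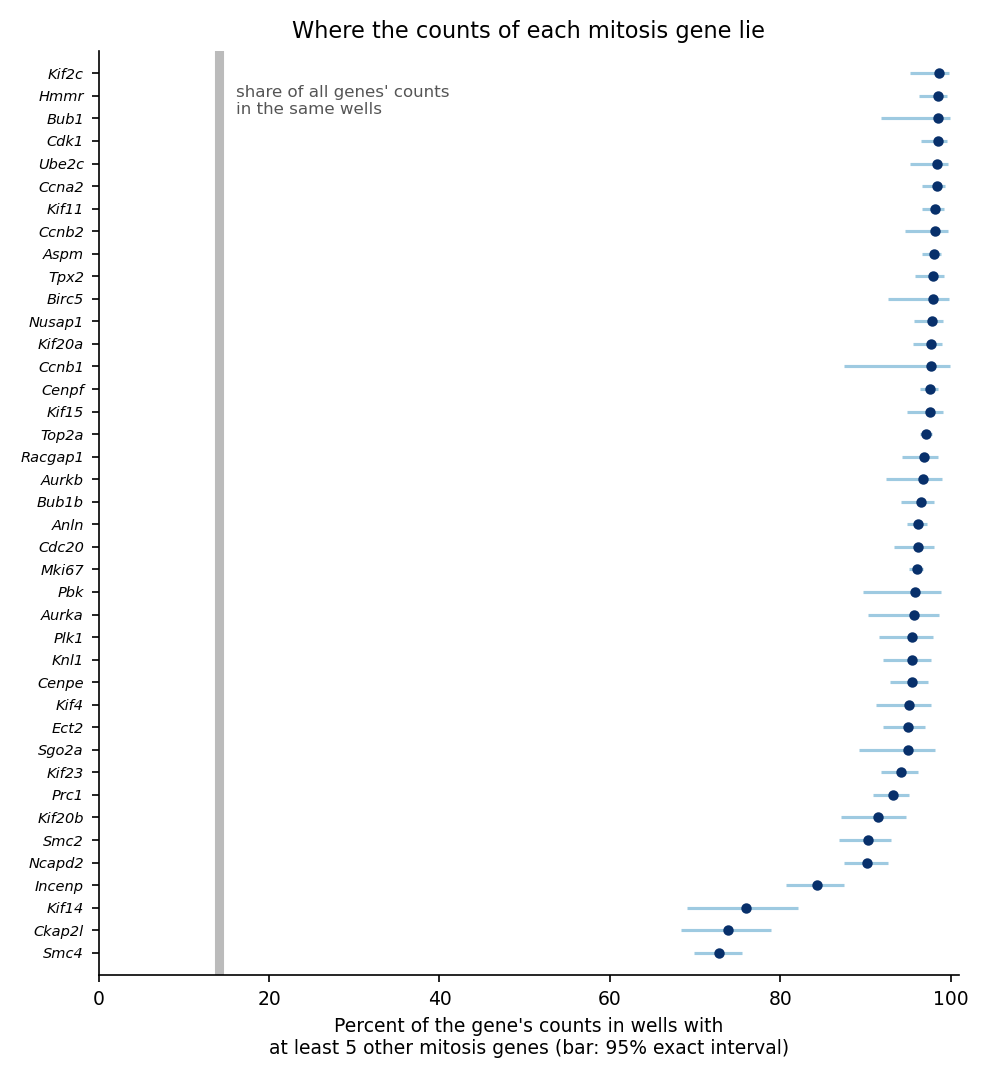
For each of the 40 genes the point gives the percent of its counts that lay in wells with at least 5 other mitosis genes, with its exact 95% interval. The grey band shows that the same wells held 13.8% to 14.6% of all counts, and Smc4, Ckap2l, Kif14 and Incenp are the lowest points.

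Genes of late cell cycle are known to share promoter elements, the CHR element, whose core reads TTTGAA and which is bound by MuvB complexes, and CCAAT boxes, which are bound by NF-Y. Because the 40 genes were found together, the 250 bases before the RefSeq transcript start (GRCm38.p6) are shown for Mki67 and Top2a, the most frequent pair, for Cdc20, whose TTTGAA lies 18 bases before the start, and for Ckap2l as a gene often found without the others. Capitals mark TTTGAA and CCAAT on either strand (TTCAAA and ATTGG where the match is on the other strand), and each line runs 5′ to 3′ along the gene's own strand.
Mki67 (chr7:135716380-135716629, minus strand): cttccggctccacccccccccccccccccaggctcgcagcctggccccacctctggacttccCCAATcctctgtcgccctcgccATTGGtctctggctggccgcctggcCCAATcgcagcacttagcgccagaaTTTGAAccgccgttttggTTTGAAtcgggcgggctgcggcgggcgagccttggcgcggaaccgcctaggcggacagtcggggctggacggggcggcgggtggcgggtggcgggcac
Top2a (chr11:99024190-99024439, minus strand): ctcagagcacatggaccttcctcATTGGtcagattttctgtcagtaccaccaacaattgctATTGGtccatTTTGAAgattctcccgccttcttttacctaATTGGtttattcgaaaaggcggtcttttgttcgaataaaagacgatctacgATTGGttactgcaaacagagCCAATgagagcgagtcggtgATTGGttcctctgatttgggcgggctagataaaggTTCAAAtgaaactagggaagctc
Cdc20 (chr4:118437344-118437593, minus strand): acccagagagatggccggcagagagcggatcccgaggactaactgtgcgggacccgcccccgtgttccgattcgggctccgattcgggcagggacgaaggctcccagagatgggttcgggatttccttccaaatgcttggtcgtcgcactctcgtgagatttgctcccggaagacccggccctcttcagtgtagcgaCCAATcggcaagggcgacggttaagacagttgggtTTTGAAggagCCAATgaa
Ckap2l (chr2:129297213-129297462, minus strand): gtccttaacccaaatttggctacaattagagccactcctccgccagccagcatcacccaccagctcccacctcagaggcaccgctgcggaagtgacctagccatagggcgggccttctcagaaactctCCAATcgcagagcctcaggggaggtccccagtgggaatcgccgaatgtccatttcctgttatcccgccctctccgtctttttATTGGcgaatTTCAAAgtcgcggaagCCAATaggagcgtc
All 4 windows hold both motifs, with 2 matches to TTTGAA in Mki67 and in Top2a and 1 each in Cdc20 and Ckap2l, so Ckap2l does not differ from the others in this respect. The table held 36 windows for 33 of the 40 genes. TTTGAA was found in 16 of the 36 (44.4%) against 15.99% of 32851 windows of all genes, CCAAT in 28 (77.8%) against 33.9%, and both in 14 (38.9%) against 5.55%. With the 50 bases after the start included, TTTGAA was found in 80.6% of the mitosis gene windows and 17.9% of all windows, and CCAAT in 80.6% and 37.4%. A match is a run of letters and not a measured binding site.

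Mitosis-rich wells were basal by their keratins. All 65 mitosis-rich wells had more counts of the basal keratins Krt5, Krt14 and Krt15 than of the spinous keratins Krt1 and Krt10, with 27714 against 677 counts in sum (2.39% spinous). In wells with fewer than 3 of the genes the spinous share of these keratin counts was 39.9%, and 1265 of these 1758 wells had more basal keratin. More basal keratin does not mark the basal layer alone. By the clusters below, 7 of the 65 wells were upper hair follicle-like and 1 Langerhans-like. Splitting all wells by the same keratins gave 1392 basal and 451 spinous wells, with 63 ties. The 40 genes together had 7462 CPM in the basal keratin wells (17975 of 2408903 counts) and 261 CPM in the spinous keratin wells (246 of 944052). P60 had 8345 against 248 CPM and P758 had 4985 against 255, and every one of the 40 genes was higher on the basal side in both animals. Of a gene's counts 91.5% (Ckap2l) to 100% lay in basal keratin wells, with a median of 99.2%, against 71.8% of the counts on all genes.

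Single genes differed in how much was left on the spinous side. Mki67 had 2479 counts in basal and 8 in spinous keratin wells (1029 against 8.47 CPM). Cenpf, a large kinetochore protein, had 997 and 1. Cdk1, Tpx2, a spindle assembly factor, and Racgap1, a subunit of centralspindlin, had 326, 343 and 317 counts on the basal side and 0 on the spinous side; taking 3 counts in the spinous wells as the floor, they were at least 42.6-fold, 44.8-fold and 41.4-fold higher in basal wells. At the other end Ckap2l had 259 and 24 counts, a 4.23-fold difference in CPM, Kif14 164 and 11 (5.84-fold), Smc4 922 and 58 (6.23-fold) and Incenp 437 and 19 (9.01-fold). These are the same 4 genes with the lowest share of counts in wells with at least 5 other mitosis genes.

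Classes of wells were also built by clustering without 238 cell cycle and histone genes, the 40 genes among them, so these did not enter the classes. Named by marker lists of each cell type, 657 wells were basal-like and 335 spinous-like, with 125 upper hair follicle-like and 98 outer bulge-like wells (together follicle-like), 47 T cell-like, 21 Langerhans-like and 25 sebaceous-like wells; the rest stayed unnamed, and no doublet caller was run on these sorted wells. Of the 65 mitosis-rich wells 45 fell in 1 unnamed cluster of 50 wells (36 P60, 13 P758, 1 P59), which held 77.6% of the mitosis gene counts and 9.26% of all counts. Its leading genes were histones, Top2a and Mki67 rather than markers of a layer. Its best marker list was the basal one, with a mean log2 ratio over the other wells of 0.017. That is under the minimum of 0.25 for a name, so it was not named. Of its 50 wells 49 had more basal keratin. Another 8 mitosis-rich wells were basal-like, 7 upper hair follicle-like, 1 Langerhans-like and none spinous-like. The named classes therefore hold only part of the mitosis gene counts of basal keratin wells, and the comparisons between classes are given with and without that cluster.

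The 40 genes had 2200 CPM (2119 to 2282) in basal-like and 259 CPM (226 to 295) in spinous-like wells. P60 had 2409 against 263 CPM, P758 1620 against 221 and P662 1268 against 232. P722 had 16 counts against 0 in 7 wells of each class, all 16 in a single well. In P662 14 of the 24 basal-like counts came from 1 well. P59 had 1 count in basal-like and 10 in spinous-like wells, 9 of the 10 in a single well. So 4 of 5 animals had the higher level in basal-like wells and P59 did not. P662, P722 and P59 were sparse and rested largely on single wells. All 40 genes were higher in basal-like wells in P60, and in P758 38 were higher and 2 were at 0 in both classes. One basal-like well of P60 held 1308 of the 2827 mitosis gene counts of the class; with all mitosis-rich wells left out, the basal-like level was 502 CPM and that of spinous-like wells remained 259 CPM, since that class has no mitosis-rich well.

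Counts summed per animal and class were tested across all genes with edgeR's quasi-likelihood test, animal as a block, on genes with at least 50 counts, with Benjamini-Hochberg adjustment. Of 6433 genes tested 848 (13.2%) were higher in basal-like wells at an adjusted p of 0.05. Of the 40 genes 21 passed the filter, largely through their counts in basal-like wells, and 20 of these rose. The filter makes this count, and the adjusted p-values of these genes from edgeR's test, a description. Mki67 was higher by 4.23 on the log2 scale (SE 0.38, adjusted p = 3.8e-26) and Top2a by 3.36 (SE 0.36, adjusted p = 4.0e-19). A single P60 well held 193 of the 365 basal-like counts of Mki67, and for Top2a a single P60 well held 162 of 283. The kinetochore proteins Cenpf and Cenpe were higher by 6.08 (SE 0.66) and 3.20 (SE 0.58). For Anln, the scaffold of the contractile ring, the difference was 4.72 (SE 0.50), and for the kinesin Kif20a 5.10 (SE 0.77). Smc4 was higher by 1.35 (SE 0.30, adjusted p = 6.6e-05) and Incenp by 1.28 (SE 0.47, adjusted p = 0.032), the 2 smallest differences among the 20. Ckap2l was the exception, with 0.54 (SE 0.43, adjusted p = 0.44). DESeq2 on the same sums called 4 of the 21 and gave no adjusted p for 13, with adjusted p = 0.25 for Mki67, 0.072 for Top2a and 0.41 for Smc4. Without P758 12 of 15 genes were called and without P60 2 of 3, and Smc4 lost its call in both cases (adjusted p = 0.13 and 0.091).

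With the unnamed cluster put with its basal keratin class, an alternative added after seeing the data, 39 of the 40 genes passed the filter and 39 were called higher in basal wells, as were 12.8% of all genes. That cluster holds 77.6% of the mitosis gene counts, so most of these genes pass the filter through it and where it is placed fixes their direction; the count is a description. The difference was then 6.40 for Mki67 (SE 0.39), 8.25 for Cenpf (SE 0.55), 2.81 for Smc4 (SE 0.31) and 2.08 for Ckap2l (SE 0.36, adjusted p = 9.1e-08). The split by keratins alone gave 39 of 39, against 12.5% of all genes. Basal keratin wells held a median of 99.2% of a gene's counts, so these genes pass the filter through that side. That count is a description too. With cell cycle genes kept in the clustering, 3 of the 40 genes passed the filter and 1 of them was higher in basal-like wells.

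**Figure D3:**
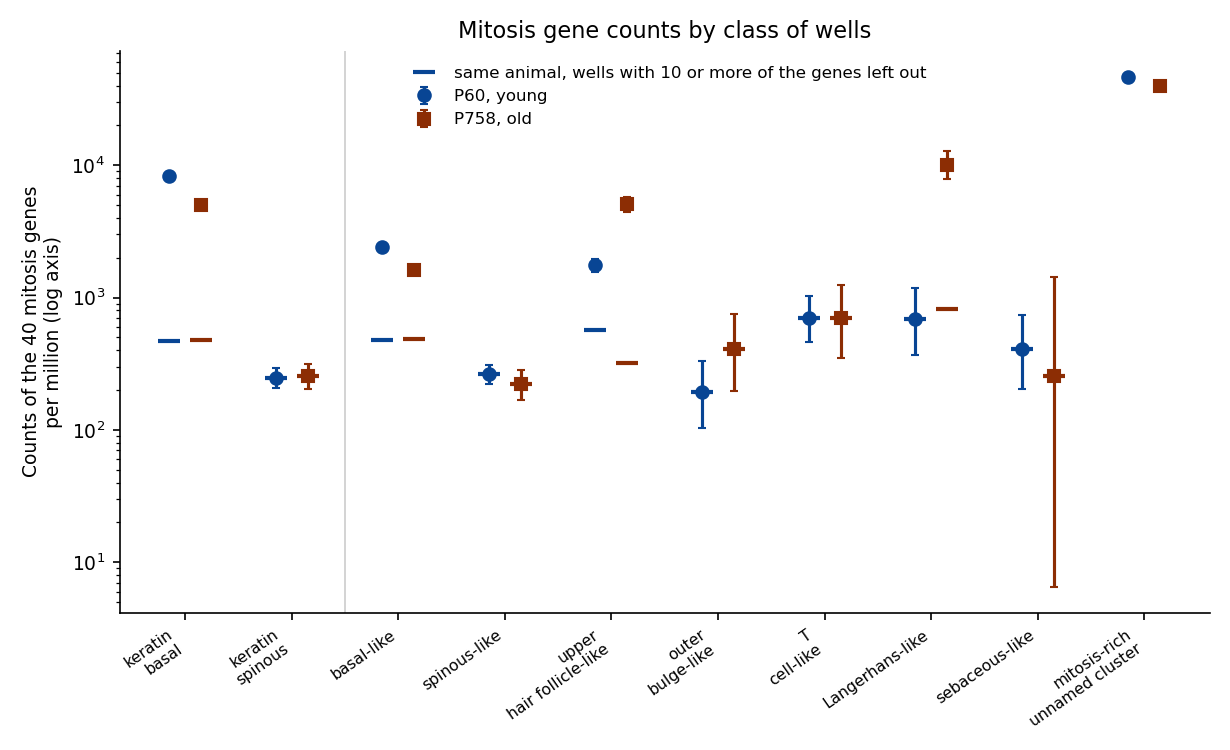
Summed level of the 40 mitosis genes in CPM (log axis) by class of wells in P60 (circles) and P758 (squares), with exact 95% intervals; short bars give the level with the mitosis-rich wells left out. Basal wells lie above spinous wells in both animals by keratins and by clusters, while upper hair follicle-like wells lie above basal-like wells in P758 (5064 against 1620 CPM) and below them in P60.

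Of the 2 named follicle classes, the 40 genes were found in the upper follicle and hardly in the bulge, which houses the mostly resting follicle stem cells. A further cluster of 115 wells, led by Krt79, Flg, Cst6 and Krt17, held 4 granular and 4 upper follicle markers among its 10 leading genes. It stayed unnamed and lies outside both classes, and its level of the 40 genes is not given. Upper hair follicle-like wells had 2415 CPM (2221 to 2621; 572 counts), and 7 of the 125 wells were mitosis-rich. Outer bulge-like wells had 258 CPM (166 to 384; 24 counts), and no well held more than 2 counts of the genes. None of the 98 bulge-like wells had 3 or more of the genes, against 15 of 125 upper follicle wells (12.0%, 6.87 to 19.02). The bulge-like wells were shallower, with a median of 653.5 against 893 counts, and the part of depth in the numbers of wells was not tested. The upper follicle level rested on few wells: in P758 (5064 CPM) 132 of 236 counts came from 1 well, and without the mitosis-rich wells the class had 590 CPM. Langerhans-like wells had 3163 CPM, but 68 of their 83 counts came from 1 well of P758. T cell-like and sebaceous-like wells had 701 and 385 CPM with no mitosis-rich well.

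Between basal-like and follicle-like wells the genes did not move one way. The level was 2409 against 1329 CPM in P60 and 1620 against 3470 CPM in P758. Of the 40 genes 38 were higher in basal-like wells in P60, and 30 were higher in follicle-like wells in P758. In the edgeR test 444 of 5747 genes (7.73%) were called in either direction, and 0 of the 24 mitosis genes that passed the filter. An unadjusted p under 0.05 was found for 4 of the 24 and for 928 of the 5747. DESeq2 called 0 of the 24. Closest to the threshold was Ccna2 with 2.22 (SE 0.82, adjusted p = 0.077), followed by Top2a with 0.90 (SE 0.36, adjusted p = 0.12), while Mki67 differed by -0.21 (SE 0.29, adjusted p = 0.86). With the unnamed cluster put with its basal keratin class, 36 of 39 genes were higher in basal wells, as were 5.46% of all genes, so this comparison turns on where that cluster is placed, and the count is a description. Kif14, Ccnb2 and Bub1 were the 3 without a call.

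The wells with mitosis genes were then compared with wells without them for all other genes. Wells of at least 500 counts with 3 or more of the 40 genes (100 in P60, 37 in P758) were set against wells with none (386 and 283), the 40 genes being left out of the test and of the totals. Only these 2 animals had enough such wells, so that 1 residual degree of freedom was left. Of 6182 genes tested 533 (8.62%) were higher in the wells with mitosis genes. Of 69 further mitosis genes 48 were tested and 47 rose, among them Tubb5, a beta-tubulin (3.44 on the log2 scale, SE 0.18), Lmnb1, lamin B1 of the nuclear envelope (4.37, SE 0.31), and Iqgap3 (5.63, SE 0.36). Of 40 genes of S phase and replication 29 were tested and 25 rose. Rrm1, a subunit of ribonucleotide reductase, was higher by 2.82 (SE 0.24), Atad2 by 3.59 (SE 0.31) and the helicase subunit Mcm4 by 1.496 (SE 0.28). All 49 histone genes tested rose, for example H2bc18 by 3.92 (SE 0.19). The mitosis-rich wells, which are among the wells with mitosis genes, held 80.8% of the histone counts and 70.9% of those on further mitosis genes. For S phase genes the share was 41.4%. Histone and further mitosis genes thus pass the filter of 50 counts largely through the wells chosen. The numbers of these genes that rose are therefore a description. Of the 17 cell cycle brakes 12 were tested and 1 rose, with Cdkn1a at -0.37 (SE 0.27, adjusted p = 0.42), and of 6 tested genes of G1 none rose and Ccnd1, cyclin D1, fell by 1.22 (SE 0.38, adjusted p = 0.013). All adjusted p-values here are from edgeR's quasi-likelihood test, whose calls over all genes numbered 891; DESeq2 gave 177. Wells with more of the genes are deeper wells. With the wells chosen by the genes found after thinning each to 500 counts, 1406 of 7364 genes were called. The tested sums kept the full counts, so depth was not evened out in that test.

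In the comparison of basal-like with spinous-like wells the other cell cycle lists are given for reference. Of all 6433 genes tested there 848 (13.2%) were higher in basal-like wells and 589 lower. Of 18 S phase genes tested 11 rose in basal-like wells and none fell, with Mcm6 at 1.10 (SE 0.29) and Rrm1 at 1.04 (SE 0.27). Of 15 further mitosis genes 6 rose, such as Lmnb1 (2.36, SE 0.42), and 3 fell, among them Rangap1 (-1.24, SE 0.24). The G1 cyclins Ccnd2 and Ccnd1 were higher in basal-like wells by 4.29 (SE 0.33) and 2.83 (SE 0.41), and of the brakes Cdkn1a, which encodes the cycle inhibitor p21, was lower there (-2.08, SE 0.25) while Btg2 was higher (1.04, SE 0.22). Cyclin D1 was thus higher in the basal class and lower in the wells with mitosis genes.

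The mitosis-rich wells differed among themselves in their histone counts. Histone messages are translated mainly during DNA replication, and histone genes took 0% to 27.5% of the counts of these wells. In 24 wells the share lay at or below 1.63% and in 41 at or above 2.61%, and both kinds occurred in both animals: 15 histone-poor and 31 histone-rich wells in P60, 9 and 10 in P758. The limit of 2% between them was set after the values had been seen. Of the counts outside histone genes, mitosis genes took 4.24% in histone-poor and 4.71% in histone-rich wells of P60, and 3.69% and 3.35% in P758, so the animals differed in direction.

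Histone genes were left out of the genes tested and of all totals, which holds for every level in this paragraph. In edgeR's quasi-likelihood test 46 of 1608 genes (2.86%) differed between histone-poor and histone-rich wells, and 0 of the 39 mitosis genes tested. An unadjusted p under 0.05 was found for 10 of the 39 and for 197 of the 1608. DESeq2 called 0 of the 39. Cenpe, the kinesin that carries chromosomes to the spindle equator, had 1342 CPM in histone-poor and 732 in histone-rich wells of P60 and 910 and 445 in P758. Its difference was 0.94 on the log2 scale (SE 0.30, adjusted p = 0.058). Cenpf had 3369 and 2006 CPM in P60 and 2903 and 1710 in P758 (0.76, SE 0.26, adjusted p = 0.099). Cdc20, the activator of the anaphase promoting complex, and Plk1 had higher levels in histone-poor wells of both animals (0.72, SE 0.30, and 0.82, SE 0.35). Smc2, the partner of Smc4 in condensin, had 509 CPM in histone-poor and 1259 in histone-rich wells of P60 and nearly equal levels of 541 and 547 CPM in P758 (-0.87, SE 0.31). The wells taken decide the calls of edgeR's test. Among wells with at least 20 of the genes 6 of the 39 were higher in histone-poor wells, as were 16 of all 1372 genes tested. Cenpe was among the 6 (1.30, adjusted p = 0.0026). Among wells with at least 5 of them 6 of the 39 were lower, as were 54 of all 1990 genes tested. These 6 included Smc2 (-1.34, adjusted p = 0.0029) and Pbk (-1.81, adjusted p = 0.017).

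**Figure D4:**
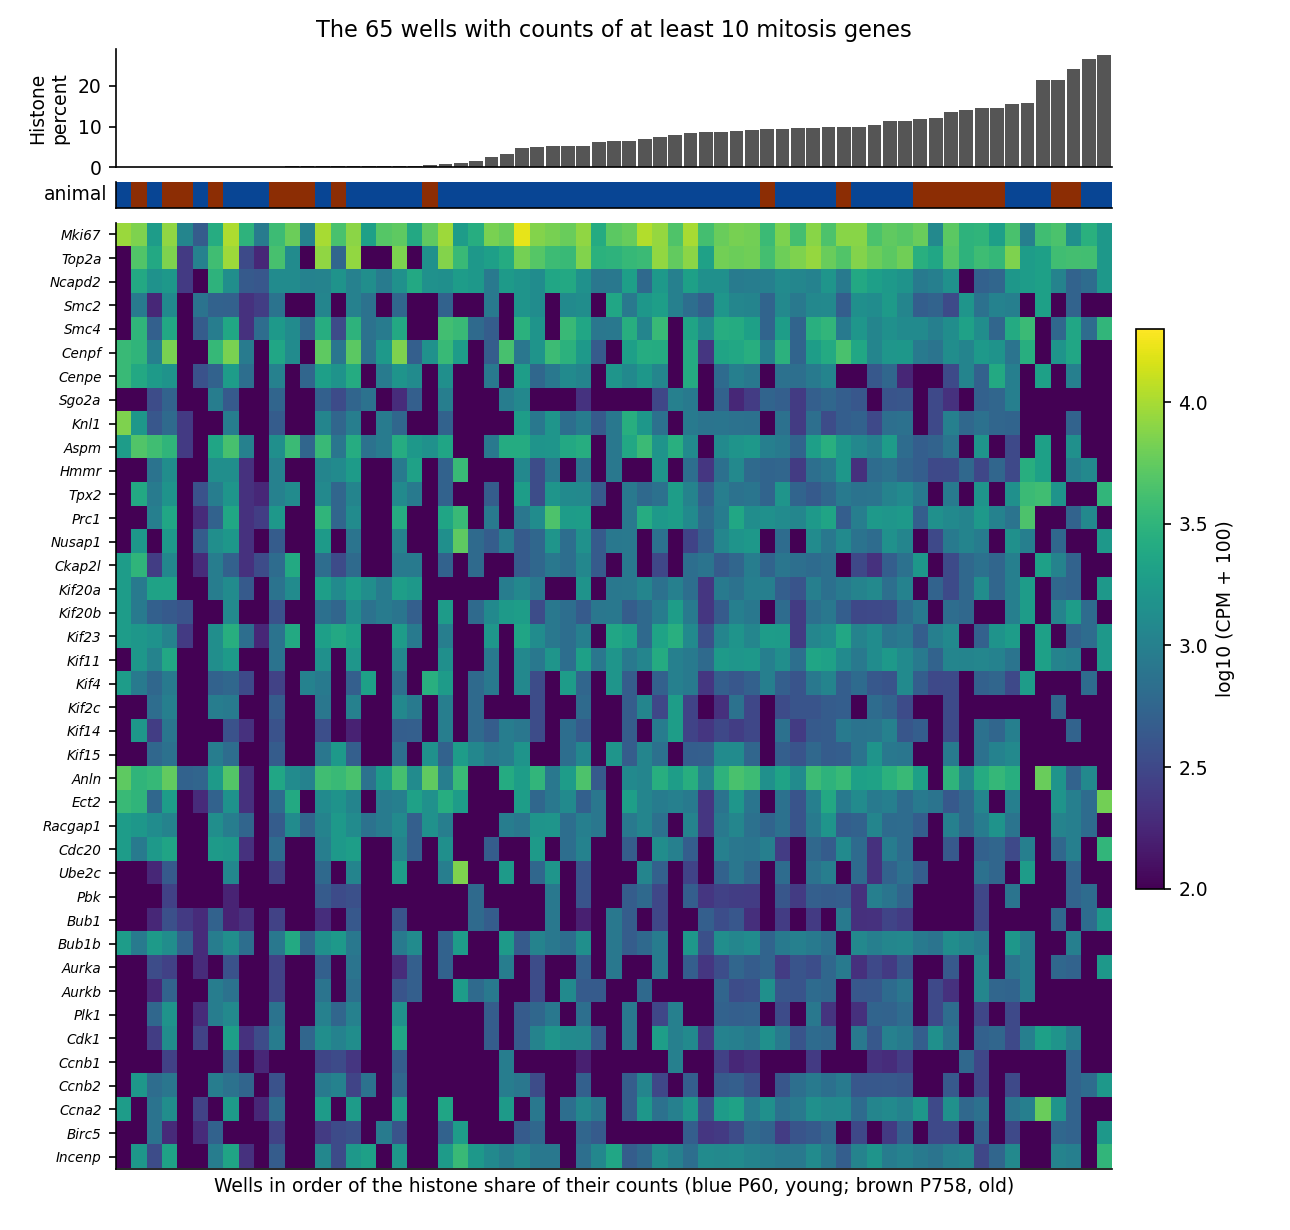
Columns are the 65 mitosis-rich wells in order of the histone share of their counts (bars on top, percent; strip: blue P60, brown P758), rows the 40 genes by role, and colour is log10 of CPM plus 100. The totals behind these CPM include histone genes, and Mki67 is seen across the whole range of histone shares, from the 24 wells on the left with a share at or below 1.63% to the wells on the right.

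Between ages the 40 genes took 0.643% of the counts (0.633 to 0.654) in P60, 0.194% (0.124 to 0.288) in P59 and 0.287% (0.161 to 0.473) in P57, and 0.312% (0.301 to 0.324) in P758, 0.178% (0.113 to 0.268) in P722 and 0.0709% (0.0526 to 0.0934) in P662. The means were 0.375% ± 0.237 (SD, n = 3) in young and 0.187% ± 0.121 (SD, n = 3) in old animals. The ages overlapped, since P758 lay above P57 and P59. The difference of the means was -0.19 percentage points, and -0.053 without P60.

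Single genes followed this picture. Mki67 had 382, 404 and 894 CPM in P57, P59 and P60 and 56.7, 155 and 385 CPM in P662, P722 and P758, so that the highest old animal lay just above the lowest young one. Top2a had 0, 162 and 832 CPM in the young and 56.7, 77.6 and 327 CPM in the old animals, with a wide overlap. Smc4 had 574, 162 and 342 CPM in the young and 128, 233 and 167 CPM in the old animals. Only for Smc2 did the ages not overlap, with 191, 80.8 and 145 CPM in the young and 0, 0 and 56.9 CPM in the old animals. Over all 8133 genes with at least 50 counts, 2.46% had all old animals below all young ones, so 1 of 40 is near that background. Only Mki67, Cdc20 and Smc4 had a count in every animal, and 8 of the genes had counts in P60 and P758 alone.

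Tested across all genes with edgeR's quasi-likelihood test on 6 animals, 0 (0%) of the few genes that passed its filter were called; 25 had an unadjusted p under 0.05, and DESeq2 called 0. Mki67 was the only mitosis gene tested, at -1.45 (SE 0.57, adjusted p = 0.998). With a filter of 50 counts over all animals 8133 genes were tested, 31 of them (0.381%) lower in old animals. The 39 mitosis genes tested there passed mostly through the counts of P60, so their fitted differences largely repeat that between P60 and P758; by the plain mean of the animals 8 of the 40 genes, among them Kif20a, Ncapd2 and Ect2, had the higher CPM in old animals. Of the 39, 2 fell: Pbk by 2.30 (SE 0.50, adjusted p = 0.0014) and Ube2c by 2.35 (SE 0.57, adjusted p = 0.0085), the ubiquitin-conjugating enzyme of the anaphase promoting complex. Their levels show how thin this is. Pbk had 37.3 CPM in P60 and 6.69 in P758, and 14.2, 0, 0 and 0 in P662, P722, P57 and P59. Ube2c had 69.6 CPM in P60, 14.5 in P758 and 191 in P57, the last from 1 count, and 0 in the other 3 animals. With limma on 10 plates and the animal as a random block, 0 genes were called.

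All 40 genes had a higher CPM in P60 than in P758, by 1.23-fold (Ckap2l) to 5.58-fold (Pbk), with a median of 2.04-fold; for 36 of them the exact counting interval of the ratio lay above 1. Mki67 differed 2.32-fold (2.07 to 2.61), and Ube2c 4.80-fold (2.73 to 9.21). These are 1 animal each and the intervals hold no spread between animals. The 40 genes lie largely in the same wells, and the share over all genes was not computed. The numbers of genes are therefore a description. Outside the mitosis-rich wells the genes took 0.0417% of the counts in P60 and 0.0388% in P758. Since those wells are defined by the genes and hold 93.0% of their counts, little of any difference could remain outside them. Mitosis-rich wells were 4.69% of the wells of P60 and 3.03% of those of P758, they held 14.3% and 8.34% of all counts, and mitosis genes made up 4.26% and 3.32% of the counts within them. Plates of 1 animal differed too. In the 3 plates of P60 the mitosis gene share was 0.743%, 0.674% and 0.338%, in the 2 plates of P758 0.287% and 0.329%. The plate of P60 with the lowest share, young plate 9, had 4.04% mitosis-rich wells against 4.80% and 5.21% on the other plates, and their median depth was 2311 counts against 11577.5 and 8155; they held 7.67% of its counts in place of 16.4% and 14.9%.

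At equal depth the difference between ages depended on how many genes a well had to hold. After thinning to 200 counts, wells with at least 2 of the genes made up 5.55% in P60, 4.55% in P59 and 0 of 8 wells in P57 (which allows up to 37.5%), and 3.58% in P758, 3.70% in P722 and 1.79% in P662. The means were 3.37% ± 2.96 (SD, n = 3) in young and 3.03% ± 1.07 (SD, n = 3) in old animals, a difference smaller than the spread between animals; 214 shallower wells were left out. Wells with at least 1 of the genes made up 12.5% in P57 (1 of 8 wells), 18.18% in P59 and 13.45% in P60, and 8.04% in P662, 7.41% in P722 and 12.46% in P758. Here the ages did not overlap, though P57 and P758 were nearly equal and the value of P57 rests on 1 well, and the means differed by -5.41 percentage points. On the 5 deep plates, thinned to 500 counts, wells with at least 3 of the genes made up 6.20%, 6.01% and 5.60% in P60 and 5.21% and 4.60% in P758, with overlapping intervals. Thinned to 1000 counts, such wells made up 9.09%, 7.725% and 10.95% in P60 and 8.74% and 7.69% in P758. There the plates of the 2 animals interleaved, and they also did so for at least 5 and at least 10 of the genes.

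**Figure D5:**
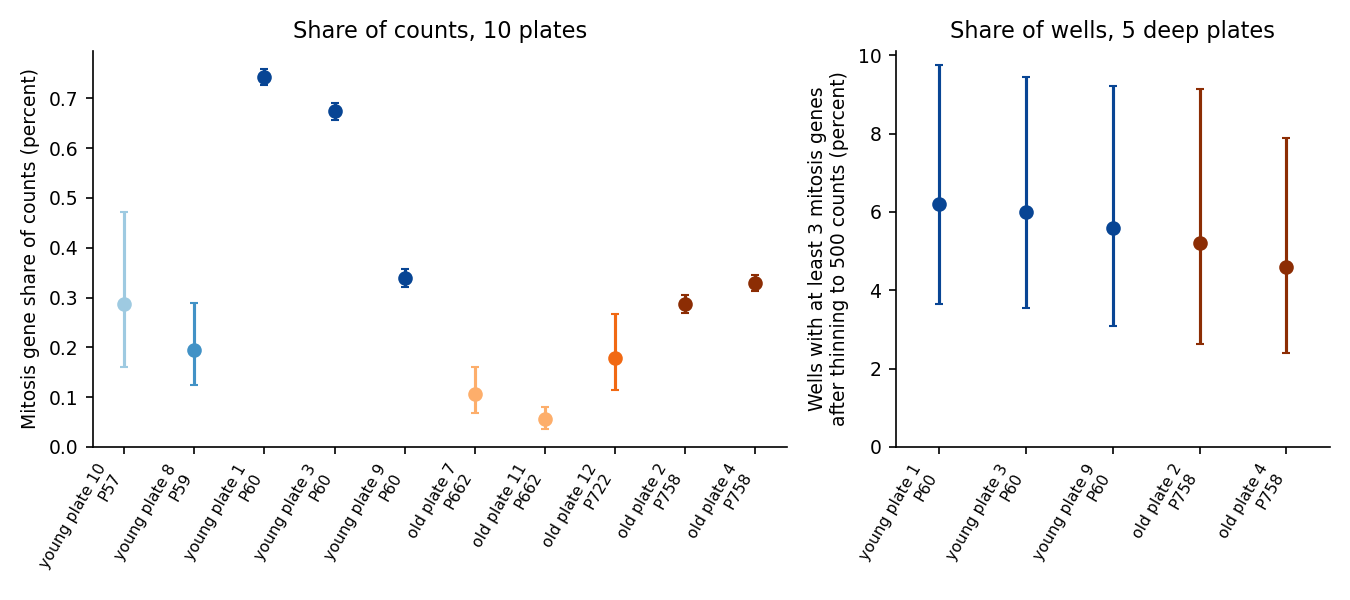
Left, percent of all counts on the 40 mitosis genes in the 10 plates, by animal; right, percent of wells with at least 3 of the genes after thinning to 500 counts in the 5 deep plates, both with exact 95% intervals. The plates of P60 reach 0.743% on the left, while the 5 plates on the right lie between 4.60% and 6.20%. Thinned to 1000 counts, which is not drawn, the plates of P60 and P758 interleaved.

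Within basal-like wells 5 animals could be compared. Of 328 genes tested 0 (0%) were called in edgeR's quasi-likelihood test, 12 had an unadjusted p under 0.05, DESeq2 called 0, and none of the 40 mitosis genes passed the filter. With a filter of 50 counts 19 of them were tested and 0 called. The 40 genes had 2409 CPM in basal-like wells of P60 and 341 in P59, and 1620, 5405 and 1268 in P758, P722 and P662. The value of P59 is 1 count and that of P722 is 16 counts from 1 well. In P662 14 of 24 counts came from 1 well. With the mitosis-rich wells left out P60 and P758 had 475 and 487 CPM.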

How the data were processed

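The authors deposited 1 table of raw counts of ribosome footprints per gene and well for each of 12 plates. Per the submitters' processing notes fastp, Bowtie2, STAR, UMI-tools and featureCounts were used with the build GRCm38.p6; the sources used here give neither their versions nor whether duplicates were removed from the deposited counts. The nuclease and Sca-1-negative plates entered no comparison. Wells under 100 counts were left out, and 1906 wells of 10 plates were kept (depth per animal is in the report).

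Counts were summed per animal and class of wells and tested with edgeR 4.0.16 (quasi-likelihood, TMM, robust), with DESeq2 1.42.0 and limma 3.58.1 as alternatives, on all genes at an adjusted p of 0.05; the fit was tested on simulated data. The age fits used filterByExpr and the class fits a minimum of 50 counts in all. Wells were clustered with scanpy 1.11.5 (1500 variable genes centred per plate, 15 components, 15 neighbours, Leiden resolution 1.0) without cell cycle genes. A cluster was named from a mean log2 ratio of a marker list of at least 0.25, at least 3 higher markers and its 10 leading genes. Thinning used random seed 1. Plates of 1 animal are technical replicates. The labels share no replicate number between ages. Genes given by value are the 40 members with at least 100 counts or a call, and up to 6 genes of highest count per further list. The 40 genes, the lists and the classes were chosen with earlier results of these data known. Promoter windows are RefSeq's (GRCm38.p6); Kif20a, Pbk, Ccna2, Aurkb, Tpx2, Incenp and Smc4 had no entry.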

Additional observations from a re-analysis of the deposited data

Results flagged for a closer look

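The plate of the old animal P758 on which different ribonucleases and concentrations were tried lay outside every comparison, and mitosis genes were found there: 302 of 128007 counts (0.236%, exact 95% interval 0.210 to 0.264) in 230 wells, with 34 of the 40 genes seen. Of its wells 4 held at least 10 of the genes, at most 30. The 2 other plates of P758 had 0.287% and 0.329%. The plate of Sca-1-negative cells, which mixes both ages, had 9 of 17377 counts (0.0518%, 0.0237 to 0.0983) in 52 wells. No well there had more than 1 of the genes, but the median depth of 201 counts per well left most wells hardly able to show 3. Over the 5 plates of each age, no plate stood apart from its age in the 16 sets of plate values checked, 10 of them levels of single genes and the rest shares; animals, at 3 per age, were not checked.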

How the results depend on the processing

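Age results rest on 6 animals of which 4 are shallow, and class results mainly on P60 and P758. The share of counts kept its sign in all alternatives, with differences of -0.28 to -0.053 when single animals were left out. The difference in wells with at least 2 genes (-0.34 percentage points) was -10.8 thinned to 500 counts, -7.85 unthinned and -5.41 for at least 1 gene (where the ages did not overlap), and -2.02 to 0.752 without single animals, so its sign turns on 1 animal. The value of -10.8 rests on 1 of 3 wells in P59 (33.3%), while P57 had 0 of 4 wells, P60 8.055% and P758 6.14%. Mki67 co-detection was 77.2% thinned to 500 counts. For age, 66 genes (2 mitosis genes) were called with a filter of 50 counts and 111 (2) with none. In basal-like wells these filters gave 12 and 38 genes, wells of at least 500 counts 17, and leaving out single animals 0 to 11. For basal-like against spinous-like wells (1437 genes called, 20 mitosis genes), DESeq2 gave 420 (4), filterByExpr 161 (0), no replicate block 955 (20), cell cycle genes kept 1445 (1), values not centred 1237 (7), classes by keratins 1833 (39) and the cluster put with its keratin class 1622 (39). Leaving out single animals gave 462 to 1508 genes and 2 to 20 mitosis genes. For follicle-like wells (444, 0), DESeq2 gave 175 and filterByExpr 204 genes, no replicate block 1 mitosis gene higher in basal-like wells, cell cycle genes kept 3 lower there, resolution 0.5 6 higher and the cluster put with its keratin class 36 higher; single animals left out gave 86 to 513 genes. There Mki67 turned to 1.86 with the cluster reassigned and Top2a to -1.52 with cell cycle genes kept. For wells with against without mitosis genes (891), DESeq2 gave 177 and no replicate block 328. Choosing the wells after thinning, with their full counts tested, gave 1406. Leaving out an animal was not run, since no residual degree of freedom is left. For histone-poor against histone-rich wells (46, 0), DESeq2 gave 3, filterByExpr 26, no replicate block 19 and wells of at least 5 genes 78 genes; the 1% limit gave 1 mitosis gene, wells of at least 5 or 20 genes 6 each. The cause of these changes was not tested. Of 126 single-gene values under alternatives 106 kept direction and call, 6 lost and 12 gained a call, and 2 turned.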

Other observations

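Genes that hold the cycle back and genes of G1 were spread over wells quite unlike the mitosis genes. Of the counts on 17 brakes and quiescence genes 12.4% lay in the 65 mitosis-rich wells, and of those on 9 G1 genes 5.87%, where 12.3% of all counts lay. Of the counts on 69 further mitosis genes it was 70.9%, on 63 histone genes 80.8% and on 40 genes of S phase 41.4%. Brakes took 0.255%, 0.0854% and 0.167% of the counts in the old animals P662, P722 and P758 and 0.0574%, 0.283% and 0.119% in the young animals P57, P59 and P60, with overlapping ages. In the age comparison with a filter of 50 counts, 0 of 12 brakes and 0 of 7 G1 genes tested were called by edgeR. Lower in old animals were 3 of 51 further mitosis genes, 2 of 49 histone genes and 1 of 31 S phase genes. Over all genes 31 of 8133 (0.381%) were lower there. Most counts came from P60 and P758, so these numbers of genes are a description. Between basal-like and follicle-like wells 3 of 12 brakes tested were higher in basal-like wells and none lower. Of all 5747 genes tested there 237 were higher in basal-like wells and 207 lower.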
